A study of Mus musculus with 2 samples.

Results

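LSD1 peaks at CpG-poor promoters are the peaks of the deposited list with a midpoint at most 1 kb from the start of a protein-coding transcript, where every such start had an observed over expected CpG ratio under 0.4 in the 1 kb centred on it. This CpG ratio is the number of CG dinucleotides divided by the number that the C and G content of the window would give. Of 59175 peaks, 13142 were promoter peaks and 1534 met the rule, which is 11.7% of the promoter peaks and 2.59% of all peaks. The 8868 promoter peaks with every start at a ratio of 0.6 or higher, called CpG-rich here, and the 46033 distal peaks beyond 1 kb from a start served for comparison. The remaining 2740 promoter peaks lay between these classes. The 1534 peaks had 1348 nearest genes.

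The peaks come from chromatin immunoprecipitation followed by sequencing, which maps where a protein sits on DNA. The cells were primary brown adipocytes of C57BL/6 N mice of control genotype at passages 2-3, and both libraries came from such cells. They were grown on collagen in medium with 20% serum, differentiated for 10 days with dexamethasone and rosiglitazone at 1 µM each, T3 at 1 nM, indomethacin at 125 nM, isobutylmethylxanthine at 500 µM and insulin at 850 nM, and fixed for 5 min. One library was precipitated with a homemade LSD1 antibody and the other is input without antibody, 1 library of each kind. With no replicate, no test was possible: the 95% intervals are taken over peaks or genes of 1 library and cover counting error only, and the depth is unknown because the list holds no counts. The score is the authors' value for each peak, on a scale not stated in the labels or the list, and it ran from 50.1 to 3224. RNA was not measured, so the brown adipocyte label could not be set against marker expression. A strong peak in few cells of a culture and a weak peak in all of them cannot be told apart.

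LSD1 is a flavin-dependent demethylase of lysine residues on histone H3 that works in corepressor complexes such as CoREST and NuRD and also occupies active promoters. Most housekeeping promoters in mammals lie in CpG islands, which are usually unmethylated and nucleosome-poor and attract CXXC-domain proteins. CpG-poor promoters belong more often to tissue-restricted or inducible genes, are often methylated where the gene is silent, and rely more on TATA boxes and on sequence-specific activators.

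To show what a CpG-poor promoter under an LSD1 peak looks like, 100 bases at or near the peak midpoint are printed for the 3 highest-scoring peaks and for genes of adipocyte and matrix biology, on the strand of the gene, from GRCm38.p6 (the chromosomes of mm10), with each CpG in capitals. The windows are 1700008O03Rik (chr7:44373980-44374079, minus strand, intron), Golph3l (chr3:95588603-95588702, plus strand, intergenic) and Sipa1 (chr19:5663369-5663468, minus strand, intron). Cox7a1 (chr7:30184298-30184397, plus strand, partly coding exon) encodes a subunit of cytochrome c oxidase, and Thrsp (chr7:97417341-97417440, minus strand, coding exon) a protein of lipogenic tissues. Gdf15 (chr8:70631263-70631362, minus strand, partly coding exon) encodes a stress-induced hormone, Klf15 (chr6:90466300-90466399, plus strand, intron) a glucocorticoid-induced factor and Col6a3 (chr1:90843972-90844071, minus strand, intergenic) a collagen chain. Fabp4 (chr3:10208412-10208511, minus strand, partly coding exon) encodes the adipocyte fatty acid binding protein and Adipoq (chr16:23147443-23147542, plus strand, intron) adiponectin. The windows of these 10 genes hold 0 to 4 CpG each.
1700008O03Rik: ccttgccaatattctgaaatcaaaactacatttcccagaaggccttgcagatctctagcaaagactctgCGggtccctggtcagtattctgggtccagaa
Golph3l: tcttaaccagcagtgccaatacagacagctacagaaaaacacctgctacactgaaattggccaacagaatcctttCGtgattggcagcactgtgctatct
Sipa1: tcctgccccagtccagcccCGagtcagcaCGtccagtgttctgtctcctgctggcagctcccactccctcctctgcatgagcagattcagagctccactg
Cox7a1: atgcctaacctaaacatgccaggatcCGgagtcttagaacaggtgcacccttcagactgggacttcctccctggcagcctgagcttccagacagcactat
Thrsp: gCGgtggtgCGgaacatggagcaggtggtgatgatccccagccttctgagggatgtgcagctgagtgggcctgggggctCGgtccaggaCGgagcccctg
Gdf15: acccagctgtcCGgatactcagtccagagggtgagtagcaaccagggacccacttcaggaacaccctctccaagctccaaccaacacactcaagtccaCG
Klf15: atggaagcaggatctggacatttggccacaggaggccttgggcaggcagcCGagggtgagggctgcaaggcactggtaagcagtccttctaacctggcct
Col6a3: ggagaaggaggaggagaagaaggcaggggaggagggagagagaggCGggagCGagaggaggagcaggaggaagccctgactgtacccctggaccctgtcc
Fabp4: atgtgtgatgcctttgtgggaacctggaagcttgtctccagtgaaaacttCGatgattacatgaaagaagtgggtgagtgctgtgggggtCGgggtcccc
Adipoq: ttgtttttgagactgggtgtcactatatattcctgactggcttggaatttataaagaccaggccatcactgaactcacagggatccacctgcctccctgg

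For contrast, windows cut the same way from 2 CpG-rich promoter peaks are those of Acly (chr11:100527695-100527794, minus strand, intron), which encodes ATP citrate lyase, and Sgk1 (chr10:21994523-21994622, plus strand, intron), a glucocorticoid-induced kinase. They hold 7 and 6 CpG. Acly, Adipoq and the CpG-rich peak of Sgk1 were chosen after their values were seen.
Acly: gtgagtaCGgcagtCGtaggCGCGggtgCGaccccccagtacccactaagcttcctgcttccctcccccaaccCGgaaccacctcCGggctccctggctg
Sgk1: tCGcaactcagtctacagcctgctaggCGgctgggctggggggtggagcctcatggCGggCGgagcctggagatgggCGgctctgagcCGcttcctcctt

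AP-1, the dimer of Fos and Jun proteins, binds a site without CpG, and 95 CpG-poor promoter peaks held it (TGACTCA, or TGAGTCA on the other strand) in the 200 bp around the midpoint. The 27 bases around the match are printed for the 6 highest-scoring of them, on the plus strand, with the match in capitals. They lie at chr15:100687337-100687363 in an intron of Cela1 (an elastase), chr15:76196457-76196483 in an intron of Plec (the cytolinker plectin) and chr7:45920721-45920747 in a non-coding exon of Emp3 (a membrane protein). The others lie at chr11:84067146-84067172 in an intron of Dusp14 (a dual-specificity phosphatase), chr3:90587858-90587884 in an intron of S100a3 (a calcium-binding protein) and chr6:5255804-5255830 in an intron of Pon3 (a paraoxonase).
Cela1: gggccagttcTGAGTCAtctgtgcccc
Plec: ctgggtgctgTGACTCActcgaaagga
Emp3: caggcatcctTGACTCActgactctct
Dusp14: cgtcagtaggTGAGTCAgagctggagg
S100a3: gaaggaactgTGACTCAcaggcataac
Pon3: tttcagtgtcTGAGTCAgctataaaca

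CpG-poor promoter peaks were lower and narrower than CpG-rich ones and close to distal peaks. Their median score was 112 (95% interval 108 to 116), with quartiles of 87.0 and 190.2 and a range of 51.4 to 1402. The medians were 305 (298 to 314) for CpG-rich promoter peaks and 102 (102 to 103) for distal peaks. The CpG-poor median was thus well under the CpG-rich one and only a little above the distal one. A score of 500 or more was reached by 55 CpG-poor peaks (3.59%), against 29.7% of CpG-rich and 1.94% of distal peaks, and the difference from the distal share was 1.65 points (0.815 to 2.70). Median widths were 635 bp (624 to 646), 1014 bp and 603 bp in the same order.

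The sequence under these peaks overlaps in large part the window around the start that the rule selected on, so its CpG content is a description of the class. The median CpG ratio in the 500 bp around the midpoint was 0.242, against 0.817 at CpG-rich promoter peaks and 0.199 at distal peaks, and the median GC content was 52.0%, 64.0% and 47.2%. The ratio at the midpoint stayed under 0.4 for 1317 of the CpG-poor peaks (85.9%). It reached 0.6 or higher for 27, whose median score was 167 (102 to 353), whose median width was 819 bp and whose midpoints lay a median of 752 bp from the nearest start. Cd14, Rxfp3, Sh2d4a and Zfp748, described later by their scores, are among these 27. Masked repeats covered more than 50% of the central 200 bp in 4.69% of CpG-poor peaks, in 1.01% of CpG-rich and in 9.27% of distal peaks.

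Over genes, a peak at a CpG-poor promoter was the exception. Of 7681 genes with every start under 0.4, 748 had a peak midpoint within 1 kb of a start, which is 9.74% (9.10 to 10.4). With only peaks at or above the median score of the list the share was 5.52%. The share was 83.9% of the 6683 genes with every start at 0.6 or higher, and 54.1% of all 21853 protein-coding genes. Of the 748 genes, 730 had a CpG-poor promoter peak as defined here, and 18 only peaks that also lay by a start of another gene at 0.4 or higher.

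Within the CpG-poor genes the share with a peak followed the CpG ratio of the highest start. It was 1.72% (0.739 to 3.97) of 290 genes at a ratio under 0.05, 6.24% between 0.15 and 0.2, 13.7% between 0.25 and 0.3, and 26.97% (23.8 to 30.4) of 686 genes between 0.35 and 0.4. Each step of 0.05 had a higher share than the one before it. The peak score moved less over this range: the median was 103 (90.7 to 126) for 61 peaks at ratios under 0.1 and 123 (113 to 138) for 513 peaks between 0.3 and 0.4. Genes with more starts had a peak more often, from 6.97% of those with 1 start to 28.9% of those with 5 or more, and their median ratio rose too, from 0.175 to 0.293, so these quantities moved together and their separate parts were not tested.

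**Figure D1:**
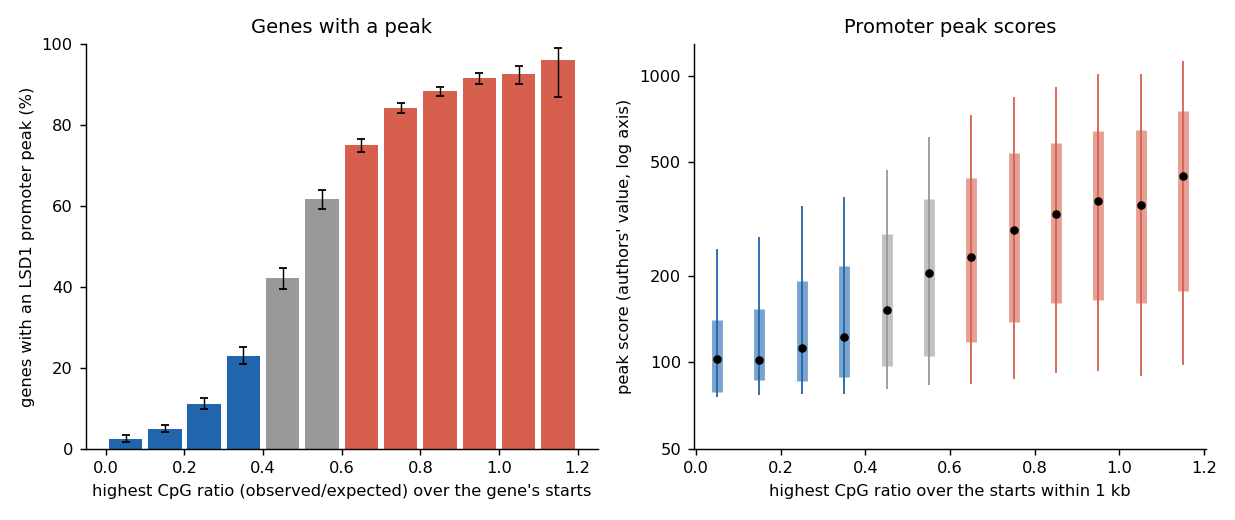
Left, the share of protein-coding genes with an LSD1 peak midpoint within 1 kb of a start (vertical axis, %) by the highest CpG ratio over the gene's starts in steps of 0.1, with Wilson 95% intervals; right, promoter peak scores on a log axis by the highest CpG ratio over the starts within 1 kb, with medians (points), quartiles (thick bars) and the 10th to 90th percentile (thin bars). Blue marks ratios under 0.4, grey between and red 0.6 or higher; bins of under 20 genes or peaks are not drawn. The share climbs from 2.42% in the lowest step to 22.9% between 0.3 and 0.4 and 96.2% between 1.1 and 1.2.

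At the threshold itself, the peaks just inside lay by Rhoj (ratio 0.399957, score 707), Tap2 (score 119), a peptide transporter, and Chodl (score 76.8). Those just outside lay by Picalm (ratio 0.40004, score 109), a clathrin assembly protein, Atl1 (score 212) and Cbarp (score 289.5). The lowest ratios belonged to the peaks by Serpina3i (ratio 0, score 95.8), Srgap2 (score 94.4) and the olfactory receptor gene Olfr140 (score 126), all near the lower quartile or the median of the class.

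The highest scores at CpG-poor promoters belonged to genes of diverse roles. The peak by 1700008O03Rik scored 1402 (chr7:44373394-44374666), with its midpoint 430 bp upstream of the nearest start. The peak by Golph3l, a Golgi protein, scored 1349 (chr3:95587959-95589346), with its midpoint 281 bp upstream, and that by Sipa1, an inhibitor of Rap GTPases, scored 1089 (chr19:5662655-5664183), 201 bp downstream in an intron. These peaks exceeded the CpG-rich median more than 3-fold although the starts had ratios of 0.288, 0.399 and 0.387.

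Rtkn scored 1072 (chr6:83135927-83138604) and had the widest peak of the class, 2678 bp. Lgals1, which encodes galectin-1, scored 974 (chr15:78925724-78927100) over an intergenic midpoint 313 bp upstream. Banp scored 955, AI464131 949, the adaptor gene Sh2d4a 939 and Zfp607b, a zinc finger gene, 921. The Banp midpoint lay 634 bp upstream of its only start within 1 kb. That start came only from transcripts annotated as incomplete at their beginning. Banp, Mafk and Irf5 also have another start at a ratio of 0.6 or higher. The unconventional myosin gene Myo1h scored 850.0, the small Maf factor gene Mafk 848, the interferon regulatory factor gene Irf5 836, the aggrecanase gene Adamts5 769 and Rxfp3, a relaxin-family receptor gene, 766. Mafk (2456 bp), Irf5 (2385 bp), Rxfp3 (2316 bp) and Arap1 (2192 bp, ratio 0.0931, score 765) had the next widest peaks. Of the 5 widest peaks 4 were thus among the 15 highest scores, and Irf5 lay 1015 bp from a CpG-rich start.

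CpG-poor promoter peaks were spread more loosely around the start than CpG-rich ones. The midpoint was a median of 310.5 bp from the nearest start (284 to 333), against 164 bp (159 to 169). It lay within 200 bp for 36.6% and 56.6%, a difference of -20.05 points (-22.6 to -17.4), and more than 500 bp away for 33.4% and 17.1%. The peak covered the start in 54.4% of CpG-poor and 82.0% of CpG-rich cases. The nearest start came only from transcripts annotated as incomplete at their beginning for 12.2% of CpG-poor and 1.84% of CpG-rich peaks. The distances were not recomputed without such transcripts. Upstream and downstream were about equally filled, with 50.7% (48.2 to 53.1) of CpG-poor midpoints downstream against 54.1% (53.1 to 55.2).

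Peaks near the start scored higher than peaks at the edge of the window in both classes. At CpG-poor promoters the median fell from 139 (123 to 150) for the 346 midpoints within 100 bp to 98.8 between 600 and 800 bp and 99.5 between 800 and 1000 bp, below the distal median of 102. At CpG-rich promoters it was 329 within 100 bp, 358 between 100 and 200 bp and 148 between 600 and 800 bp. The classes therefore lay closest together at the outer edge of the window. Another peak lay within 10 kb of 70.1% of CpG-poor, 66.2% of CpG-rich and 61.8% of distal peaks, and midpoints fell in coding exons in 9.58%, 11.7% and 2.42%.

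**Figure D2:**
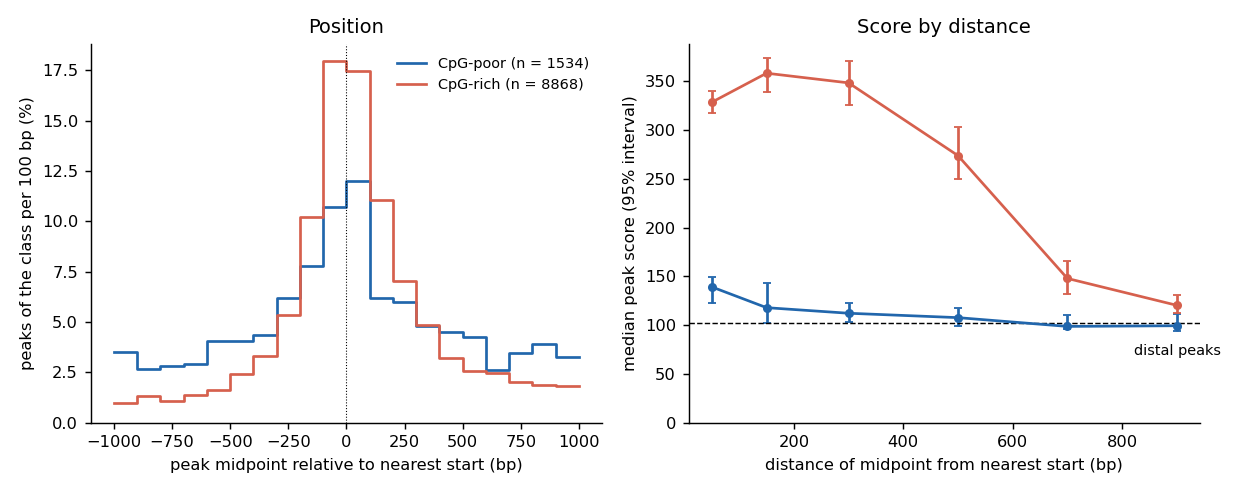
Left, the share of peaks per 100 bp (vertical axis, %) by the position of the midpoint relative to the nearest protein-coding start, in bp, negative upstream; right, the median score with its 95% interval by distance from the start, for CpG-poor (blue) and CpG-rich (red) promoter peaks, with the median of distal peaks as a dashed line. The blue profile is lower at the start and higher beyond 500 bp, and the blue medians fall from 139 to about the distal value of 102.

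Part of these peaks lay at an alternative start of a gene that has a CpG-rich start elsewhere, and how large a part depended on the window for the CpG ratio. The nearest gene of 618 peaks (40.3%, 525 genes) had another start at 0.6 or higher (24.5% with the ratio taken in 2 kb), that of 129 (8.41%) another start between 0.4 and 0.6, and that of 787 (51.3%, 712 genes) had only CpG-poor starts. The median scores were 110 (103 to 114), 102 (94.95 to 119) and 118 (111 to 126). The nearest starts of the 618 peaks lay a median of 13578 bp from the closest CpG-rich start of their gene. Of these nearest starts, 85.9% were downstream of that CpG-rich start. For 559 peaks (90.5%) at least 1 CpG-rich start of the gene, not necessarily the closest, had a peak midpoint within 1 kb. For 22.2% of the 618 the nearest start came only from transcripts annotated as incomplete at their beginning, against 3.68% of the 787 and the true beginning of such transcripts is not annotated.

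Named cases show the range. Klf15 (score 463), Ampd3, an AMP deaminase gene (203), Acaca, which encodes acetyl-CoA carboxylase (172), Ebf3, a transcription factor gene (167), and Timp3, a metalloproteinase inhibitor gene (346), all had another start at 0.6 or higher. At Sgk1 the CpG-poor start carried a peak of 111 (chr10:21991669-21992311), and the CpG-rich peak whose sequence is printed scored 1772. A CpG-rich start of any gene lay within 3 kb of 148 CpG-poor promoter peaks (9.65%), with a median score of 117 (102 to 131), and beyond 10 kb of 1133, with 112 (107 to 117). The score of the class thus did not differ beyond these intervals with the distance to a CpG-rich start.

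Of the nearest genes, 1191 had 1 such peak, 133 had 2 and 24 had 3 or more. Plec had 6, with scores of 588, 546, 199, 86.1, 84.4 and 80.3 along its many alternative first exons. Ikbke, which encodes a kinase of innate immune signalling, had 4, scoring 147, 80.8, 76.8 and 68.0. Tfeb, the lysosomal master regulator gene, also had 4, scoring 163, 114, 103 and 91.5. Plec carried strong peaks among weak ones, and the peaks of Ikbke and Tfeb were all low or moderate. These genes were chosen after their counts were seen.

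Among adipocyte genes with only CpG-poor starts, a minority had a peak, and in the adipokine and lipid lists the interval of the share lay above the 9.74% of all such genes. In the adipokine list 8 of 21 had one (38.1%, Wilson interval 20.8 to 59.1), at a median CpG ratio of 0.175, where the surrounding step of all CpG-poor genes gave 6.24%. Gdf15 scored 733, Angptl2 207 and C1qtnf1 135. The Gdf15 midpoint lay 782 bp downstream of the nearest start, in an intron. Adipoq had only a weak peak of 76.0 whose midpoint lay 847 bp downstream, and no peak was listed at Lep (leptin) or Retn (resistin). Gdf15 thus stood above the CpG-rich median of 305, and Adipoq under the CpG-poor one of 112.

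In the list of fatty acid uptake, storage and lipolysis, 5 of 13 had a peak (38.5%, 17.7 to 64.5). Their median CpG ratio was 0.277 over the 13, where the surrounding step gave 13.7%. Thrsp scored 241, G0s2, which encodes an inhibitor of adipose triglyceride lipase, 125, and Fabp4 110.1, with a midpoint 54 bp downstream of the start. Among the 5, Thrsp and G0s2 alone reached the median score of all peaks, 111. No peak was listed at the promoters of Cd36, a fatty acid transporter gene, or Gpihbp1, which anchors lipoprotein lipase. Of 7 thermogenic genes with only CpG-poor starts 2 had a peak (28.6%, 8.22 to 64.1, an interval that holds the 9.74%), Cox7a1 at 286 and Ppargc1a, the PGC-1α gene, at 95.6, and none was listed at Dio2, the thyroid hormone deiodinase gene, or Cox8b. Acot11, an acyl-CoA thioesterase gene with another start above the threshold, had a CpG-poor peak of 77.6. Of 5 glucocorticoid response genes 3 had one (60%, 23.1 to 88.2), and Mt3, a metallothionein gene, scored 142, while Timp4 and Tat had none.

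The matrix and fibroblast lists had some of the larger shares. Among collagens and matrix genes with only CpG-poor starts 11 of 21 had one (52.4%, 32.4 to 71.7), at a median ratio of 0.261, where the surrounding step gave 13.7%. With genes that also have other starts, 13 genes of the list had a CpG-poor promoter peak, at a median score of 213. Col6a3 scored 490.3, Sparc, a matricellular glycoprotein gene, 354, Col18a1 312 and Col5a2 254, whereas Col3a1 and Col6a1 had no peak. Among preadipocyte and fibroblast markers 5 of 7 had one (71.4%, 35.9 to 91.8), including Cd44, the hyaluronan receptor gene (301), Ly6a, which encodes Sca-1 (248), Dcn, the decorin gene (213), and Col1a1 (193). Pi16 and Lum had none, and Dcn, Col1a1 and Lum stand on both lists. Of the metalloproteinases and their inhibitors 3 of 12 had one (25%, 8.89 to 53.2), and this interval holds the 9.74% of all CpG-poor genes. Mmp19 at 300.4 was among them, and Mmp3 and Mmp8 had none. Adamts15, with a CpG-rich start elsewhere, scored 239.

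For the markers of other cell types the interval of the share held the 9.74% of all CpG-poor genes in every list named here except that of cytokines and chemokines. Peaks were found at 2 of 25 macrophage and leukocyte markers (8%), namely Cd14, an endotoxin coreceptor gene (321), and Laptm5 (98.2), with none at Ptprc or Cd68. The Cd14 midpoint lay 674 bp downstream in a coding exon, with a CpG ratio of 0.868 in the 500 bp around it. The Laptm5 midpoint lay 970 bp downstream of a start that came only from transcripts annotated as incomplete at their beginning. Of 11 endothelial markers 2 had a peak, Tek, the angiopoietin receptor gene, at 193 and Pecam1 at 178, through a peak whose nearest start is that of Milr1. Egfl7, which also has other starts, had one at 142, and none was found at Cdh5 or Tie1. Smooth muscle genes gave 2 of 9 (Myl9 at 235 and Myh11 at 204, none at Acta2 or Tagln), and skeletal muscle genes 3 of 22 (Tnni1 at 102, Casq1 at 91.2, and 1 through a peak shared with another start, none at Myf6 or Myog). Liver-enriched genes gave 1 of 28 (3.57%, 0.633 to 17.7), with none at Alb or Afp. Trf, the transferrin gene, which also has another start, scored 119 by a start from such incomplete transcripts only. Neuronal genes gave 1 of 7 (Vip 104, none at Stmn2 or Camk2a), and epithelial genes 1 of 18, Krt80 at 655, with none at Krt5 or Krt14. Of 32 cytokine and chemokine genes 8 had a peak (25%, 13.3 to 42.1), led by the alarmin gene Il33 at 358, then Il6 at 117, Csf2 at 102 and the interferon gene Ifnb1 at 95.9, with none at Ccl3 or Ccl4. The median score over these 8 genes was 95.4, under the distal median of 102. Il33 and Il6 alone reached the median score of all peaks, 111.

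**Figure D3:**
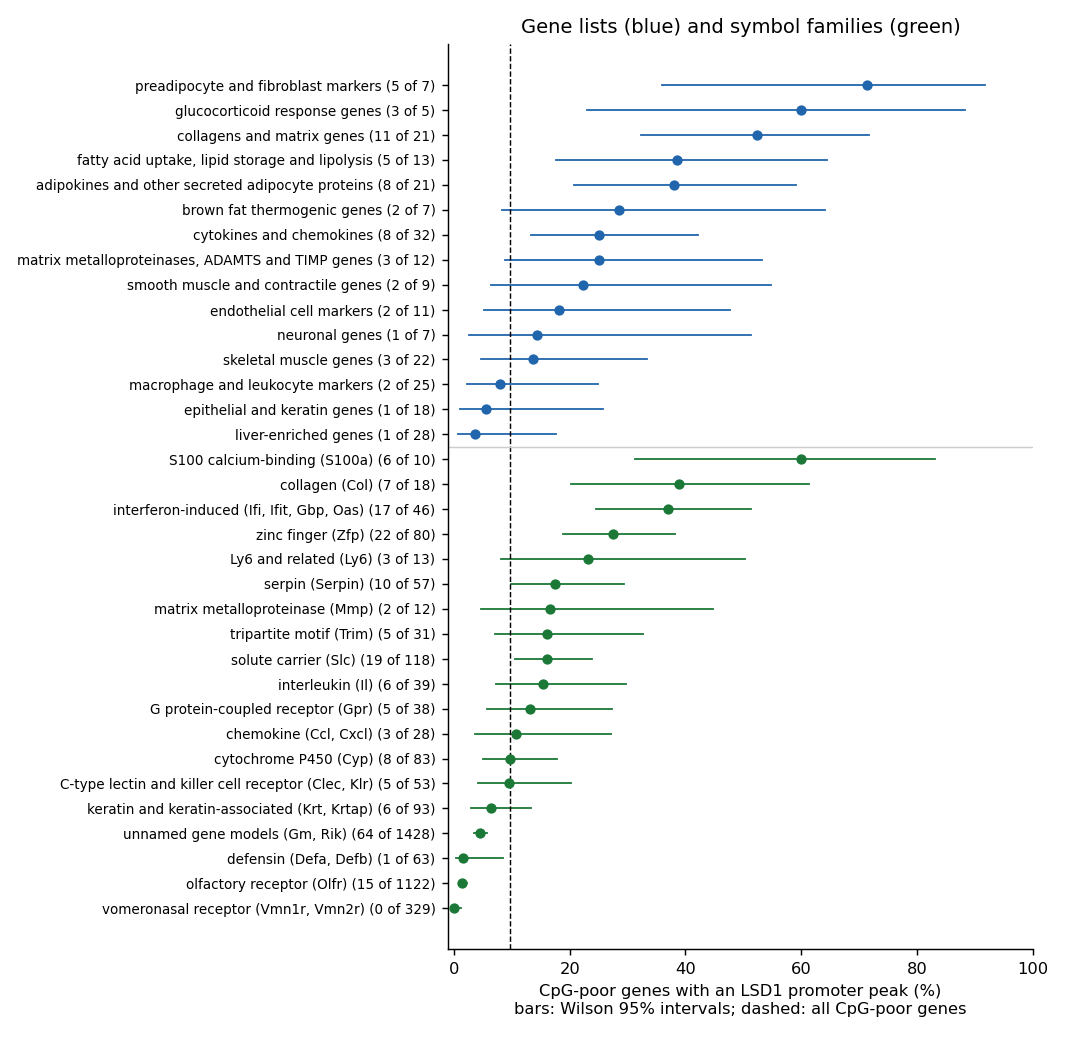
The share of genes with only CpG-poor starts that had an LSD1 promoter peak (horizontal axis, %) in 15 gene lists (blue) and 19 families of gene symbols (green), with Wilson 95% intervals and the number of genes beside each name; the dashed line is the 9.74% of all such genes. Matrix, fibroblast, adipokine and interferon-induced genes lie right of the line, and olfactory and vomeronasal receptors at its far left.

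**Figure D4:**
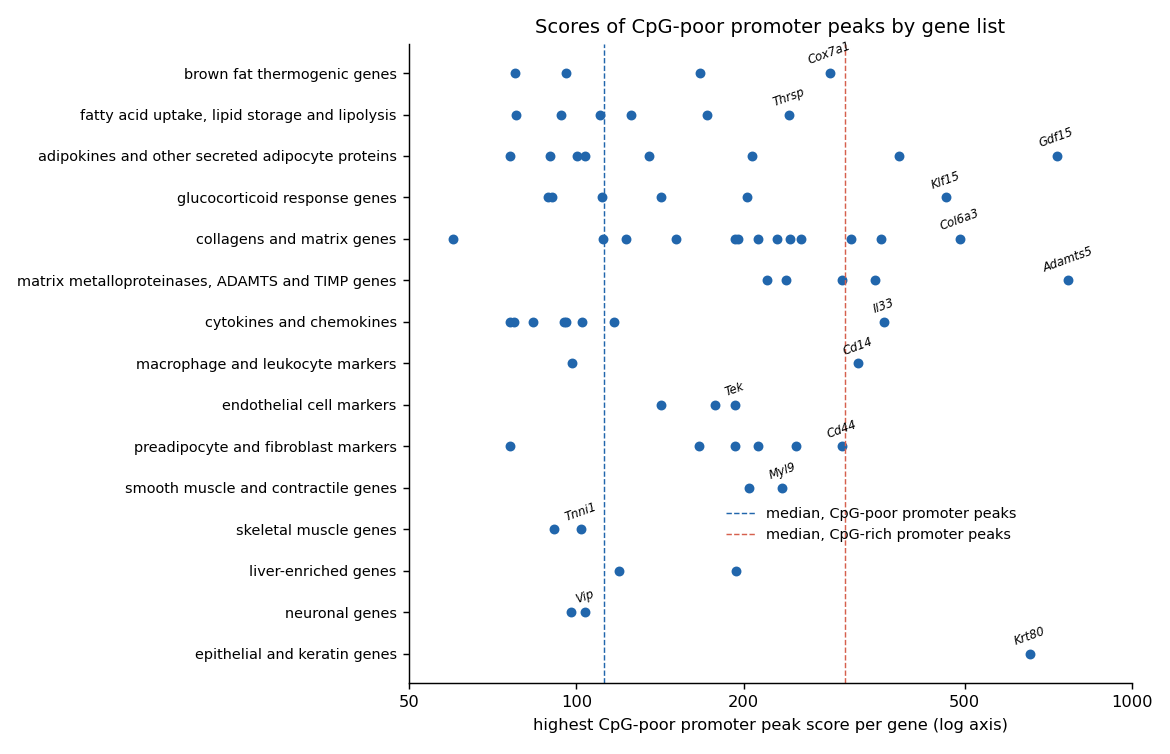
Each point is 1 gene of a list with its highest-scoring CpG-poor promoter peak (horizontal axis, authors' score, log axis), and the top gene is named in every list but that of liver-enriched genes; dashed lines mark the medians of CpG-poor (112) and CpG-rich (305) promoter peaks. Most points lie under the CpG-rich median, with Gdf15, Adamts5, Krt80, Col6a3 and Klf15 among those above it.

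Genes were also grouped into families by a common symbol. Olfactory receptor genes had a peak in 15 of 1122 cases (1.34%, 0.812 to 2.19), at a median score of 81.5, led by Olfr638 (127) and Olfr140 (126). Vomeronasal receptor genes had 0 of 329 (up to 0.912% by the limit of 3 counts, Wilson upper bound 1.15%), and defensins 1 of 63 (Defb26 at 98.5). Both receptor families lie in gene clusters that are active in sensory neurons. Their median ratios were 0.152 and 0.115, at which the steps of all CpG-poor genes gave 6.24% and 3.63%.

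Interferon-induced genes, which encode antiviral effectors, had a larger share at a similarly low ratio. Of 46 genes 17 had a peak (37.0%, 24.5 to 51.4), at a median ratio of 0.167. Ifitm2, which restricts virus entry, scored 437, through a peak that also lies by a start of Gm45717, and Ifi35 scored 320. Ifit1 and Ifit1bl2 share 1 peak, so the genes are not independent. S100a genes had a peak in 6 of 10 cases (60%, 31.3 to 83.2), S100a3 at 478 and S100a4 at 167, and these genes are neighbours on chromosome 3. The S100a3 midpoint lay 971 bp downstream of the start. The peak of another S100a gene lay 1396 bp from it, also in an intron of S100a3. Zinc finger Zfp genes had one in 22 of 80 (27.5%, 18.9 to 38.1), with Zfp607b at 921 and Zfp748 at 716. Their median ratio was 0.335, where the surrounding step gave 19.5%, inside that interval. Serpins had one in 10 of 57 (17.5%, 9.82 to 29.4), at a median ratio of 0.159 where the surrounding step gave 6.24%. Solute carriers had one in 19 of 118 (16.1%, 10.6 to 23.8), led by the fatty acid transporter gene Slc27a6 at 359 and Slc25a45 at 297. Their median ratio was 0.257, where the surrounding step gave 13.7%, inside that interval. Gene models without a name had one in 64 of 1428 (4.48%).

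Short motifs were then counted as exact matches on both strands in the 200 bp around the midpoint, and at starts in the 200 bp around the start. A match is a description of letters and not a binding site. Peak windows lay around midpoints, often away from a start, and 40.3% of CpG-poor peaks had a nearest gene with another start at 0.6 or higher. The comparison with starts of CpG-poor genes without a peak is thus not one of matched windows or matched genes. The AP-1 site was found in 6.19% (5.09 to 7.51) of CpG-poor promoter peaks, 1.62% of CpG-rich ones and 7.73% of distal peaks. It was found in 4.03% of 12332 starts of CpG-poor genes without a peak and in 2.69% of all 54327 protein-coding starts. The difference from starts without a peak was 2.16 points (1.00 to 3.52). The 95 peaks with the site had a median score of 128 (113 to 156) and the others 111 (107 to 115), and these intervals overlap. Cela1 (682), Plec (588), Emp3 (514), Dusp14 (503), S100a3 (478) and Pon3 (435), whose sites are printed above, were picked as the highest scores among the 95.

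Other motifs without CpG gave the following shares. The E-box CAGCTG, bound by basic helix-loop-helix dimers, was in 18.3% (16.5 to 20.3) of CpG-poor promoter peaks, 9.97% of CpG-rich, 13.2% of distal peaks, 13.9% of CpG-poor starts without a peak and 12.5% of all starts, and peaks with it had a median score of 124 (110 to 142) against 111. The CACCC element of KLF factors, CCACCC, was in 21.9%, 24.5%, 15.7%, 17.0% and 23.4% in the same order. The RUNX core TGTGGT (15.6%, against 15.9% at CpG-poor starts without a peak) and the TEAD core GGAATG (11.7% against 11.1%) were about as frequent with a peak as without. The ETS core AGGAAG was in 28.2%, against 30.8% at CpG-poor starts without a peak and 25.1% of all starts. CCAAT was in 20.5% of CpG-poor promoter peaks, 20.4% of CpG-rich ones, 27.04% of CpG-poor starts without a peak and 24.5% of all starts. The NFI core TTGGCA was in 11.9%, 5.95%, 9.93% and 7.66% in the same order. Against CpG-poor starts without a peak the difference was 4.89 points (2.78 to 7.13) for CACCC, 4.41 (2.45 to 6.51) for the E-box, 1.94 (0.322 to 3.73) for the NFI core, -2.68 (-5.03 to -0.244) for AGGAAG and -6.50 (-8.60 to -4.27) for CCAAT, in windows that were not matched for base composition. RUNX was in 9.99% and TEAD in 7.83% of all starts.

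Motifs that hold a CpG follow in part from the CpG content that defines the class. The GC box GGGCGG of SP factors, which shares no match with CCACCC, was in 10.6% of CpG-poor and 49.2% of CpG-rich promoter peaks, in 5.39% of distal peaks, in 7.14% of CpG-poor starts without a peak and in 37.3% of all starts. CpG-poor peaks with a GC box had a median score of 138 (116 to 156) against 111 (106 to 114) without. The GC box was in 15.5% of CpG-poor peaks within 200 bp of the start, 8.06% between 200 and 500 bp and 7.39% beyond. Scores also fell with this distance, and the separate parts of motif and distance were not tested. The ETS site CCGGAAG was in 1.83% and 9.13% of CpG-poor and CpG-rich peaks and in 8.54% of all starts. The palindromic C/EBP site TTGCGCAA was in 0 of the 1534 (up to 0.196% by the limit of 3 counts, Wilson upper bound 0.250%), and this says only that these letters are not in these windows.

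The TATA box was less frequent with a peak than at CpG-poor starts without one. The letters TATAAA were in 9.06% (7.73 to 10.6) of CpG-poor promoter peaks, 2.74% of CpG-rich ones, 9.48% of distal peaks, 15.2% of CpG-poor starts without a peak and 6.78% of all starts. For peaks these windows lay around the midpoint, and for starts around the start. At the usual position of a TATA box, 20 to 40 bp upstream of the start on its strand, the letters stood at 25 of 1474 nearest starts of CpG-poor peaks (1.70%, 1.15 to 2.49), at 0.740% of those of CpG-rich peaks, at 3.67% (3.35 to 4.01) of CpG-poor starts without a peak and at 1.39% of all starts. Among CpG-poor genes, starts of genes with a peak had it in 2.10% (1.53 to 2.86). The share at starts of genes with a peak thus lay below that at starts of genes without one, by more than the intervals. Peaks with TATAAA had a median score of 104 (96.2 to 115) against 113 (110 to 118).

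**Figure D5:**
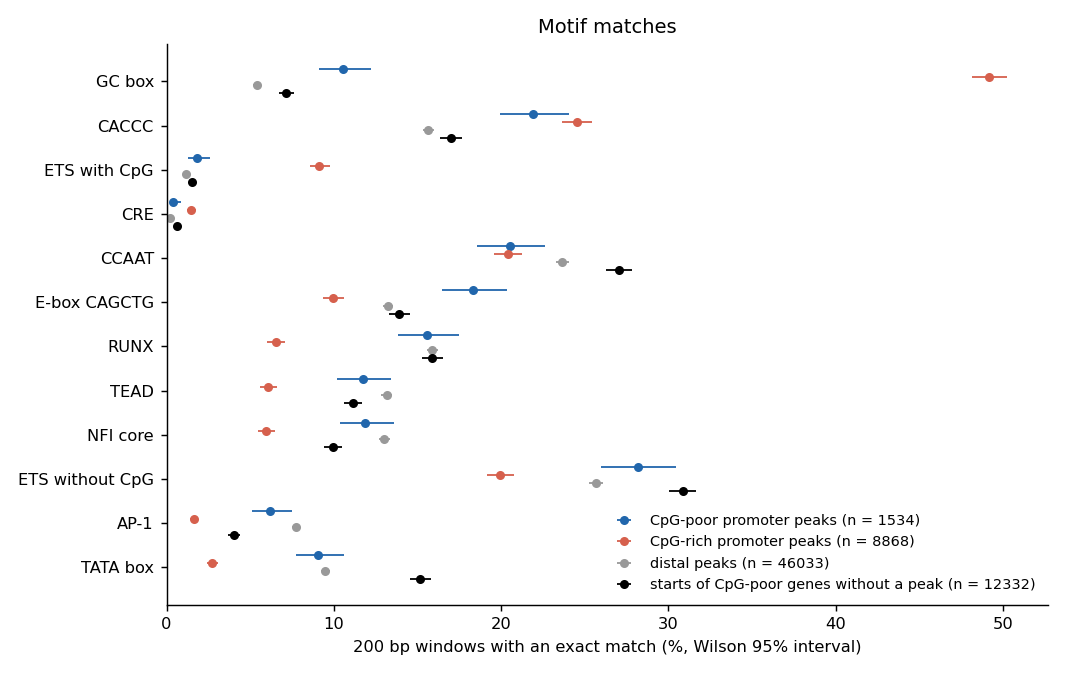
The share of 200 bp windows with an exact match on either strand (horizontal axis, %) for 12 motifs, with Wilson 95% intervals, in CpG-poor promoter peaks (blue), CpG-rich promoter peaks (red), distal peaks (grey) and starts of CpG-poor genes without a peak (black). For AP-1, RUNX and TEAD the blue points lie near the grey ones, and for the GC box the red point at 49.2% stands apart from the others.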

How the data were processed

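Reads were mapped to mm10 with Bowtie2 after sequencing on a HiSeq instrument, per the labels' protocols. Peak calling is credited to MACS 1.41, per the submitters' processing notes. Not given in the sources used here are the version of Bowtie2, the threshold for peaks and whether the input served as control. The deposited list gives 1 score per peak, the authors' value, used only for description and ranking inside it. Transcript starts (54327, of 21853 protein-coding genes) came from GENCODE M21 on GRCm38.p6, and coordinates count the first base as 1. Shares carry Wilson intervals, differences Newcombe intervals and medians order-statistic intervals, all at 95%. The computation used Python 3.11.15, numpy 2.4.6, pandas 2.3.3 and scipy 1.17.1, with plots by matplotlib 3.10.9, and was tested on simulated data. Members, 15 gene lists, 19 families and 25 motifs were chosen with earlier results of these data known. Named were the 15 highest-scoring and 5 widest peaks, the 3 with the lowest ratio, 3 on each side of the threshold, the 4 highest-scoring genes and the first 2 without a peak per list, and up to 2 genes per family; a few genes that meet this rule are not reported here. Of 441 list entries 1 was matched by a synonym. The alternatives were other CpG thresholds, CpG windows and promoter windows, the nearest start alone, complete transcripts alone, higher-scoring peaks and any overlap. The input library was not analysed here.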

Additional observations from a re-analysis of the deposited data

How the results depend on the processing

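Of 81 values recomputed under 9 alternatives, 52 stayed within their interval or 1.5 times of the count and 29 moved. Some of the 52 could not move. The thresholds of 0.35 and 0.45 do not enter the CpG-rich score or gene share, and the nearest start alone does not enter either gene share. CpG-rich peaks had the higher median score and CpG-rich genes the larger share with a peak under each of the 9. The ratio of the medians was between 2.03 and 2.86 (2.73 as reported) and the difference in share between 68.6 and 75.9 points (74.2 as reported). With only peaks at or above the median score of the list, 777 CpG-poor promoter peaks were left, the median scores were 189 (CpG-poor) and 382 (CpG-rich), the CpG-poor width was 827 bp, the gene shares were 5.52% and 74.1%, and the AP-1 share was 7.72%. With 500 bp on either side of the start, the scores were 118 and 338, the width 656.5 bp and the gene shares 6.84% and 75.7%. With the CpG ratio in 2 kb they were 121 and 331, 660 bp, 13.1% and 86.4%, and the share of peaks whose gene has a CpG-rich start elsewhere was 24.5%. With the ratio in 500 bp the CpG-rich score was 296, the CpG-rich gene share 82.1% and the share with a CpG-rich start elsewhere 44.97%. With any overlap of the peak the CpG-rich score was 284 and the gene shares 11.6% and 85.5%. Thresholds of 0.35 and 0.45 gave CpG-poor gene shares of 8.05% and 11.8%, and shares with a CpG-rich start elsewhere of 42.8% and 37.3%, and complete transcripts alone gave 35.3%. Apart from the selection of higher-scoring peaks or of more or fewer starts that each alternative makes, the cause was not tested. With 1 LSD1 library and no counts, neither replicate spread nor depth is known, and the list holds only peaks that passed the authors' threshold. No paired analysis was possible because each group has 1 library.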
